A study of Homo sapiens with 6 samples.

Results

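The TRIM (tripartite motif) family was defined as every gene in the count table whose symbol is TRIM followed by digits and an optional single letter, without pseudogenes, read-through genes or antisense genes. This gave 72 genes among the 58735 rows of the count table, which held 57167 distinct names. RNA was sequenced from RD cells, an established embryonal rhabdomyosarcoma (ERMS) line, after transduction with lentivirus carrying Scrambled shRNA (3 cultures, the controls) or TAK1 shRNA (3 cultures). Both groups therefore carried a lentiviral shRNA, the TAK1 group carried a single shRNA sequence, and the labels give no time after transduction and do not say whether the replicates were separate transductions. The p-values thus measure only the spread between these cultures, which may be technical.

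TRIM proteins typically combine a RING domain, B-box domains and a coiled coil, followed by a C-terminal domain that differs between classes and binds the target. The RING recruits a ubiquitin-conjugating enzyme, and the protein then transfers ubiquitin either as a signal for degradation or as a chain that serves as a scaffold in signaling. Members act in antiviral defence, in the muscle sarcomere and in gene silencing. Several have been linked to TAK1, the kinase downstream of cytokine and innate immune receptors that is activated on ubiquitin chains. TAK1 acts with TAB1 and with TAB2 or TAB3 as partners.

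The deposited values were unnormalised read counts, with totals from 28839898 to 34469323 per culture. Values below are CPM, that is, counts scaled to a common library size after normalization by the trimmed mean of M-values. MAP3K7, which encodes TAK1, was at 77.9, 76.5 and 77.6 CPM in the controls and at 30.5, 33.6 and 29.9 CPM in the TAK1 shRNA cultures, a log2 fold change of -1.30 (SE 0.0615, adjusted p = 4.45e-14), so the labels matched the targeted gene. Of 14 skeletal muscle lineage markers, 12 passed the filter on low counts, and MYF5 had 0 counts in all cultures. Blood and endothelial markers summed to at most 0.51 CPM in a culture, and of 7 epithelial markers 2 passed the filter. The summed level of the epithelial markers was 56.4 to 62.8 CPM in the controls and 27.7 to 31.1 CPM in the TAK1 shRNA cultures, where KRT18 fell by 1.09 on the log2 scale, and its part in the results below was not tested.

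Of the 72 TRIM genes, 44 passed the filter and were tested among 15935 genes. The log2 fold change was taken as TAK1 shRNA over Scrambled shRNA, and a gene was called when it moved by 0.25 or more either way with an adjusted p below 0.05. TAK1 knockdown upregulated 6 TRIM genes (TRIM54, TRIM36, TRIM7, TRIM25, TRIM45 and TRIM14), or 13.6% of the tested members against 11.8% of all tested genes. It downregulated 4 (TRIM59, TRIM5, TRIM2 and TRIM38), or 9.09% against 11.3%. The 10 called members made up 22.7% of those tested and the background was 23.1%, so the family held about the same share of called genes as the whole transcriptome. The fold changes ran from -0.50 to 0.58 with a median of 0.038, beside a median of 0.018 over all tested genes.

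**Figure D1:**
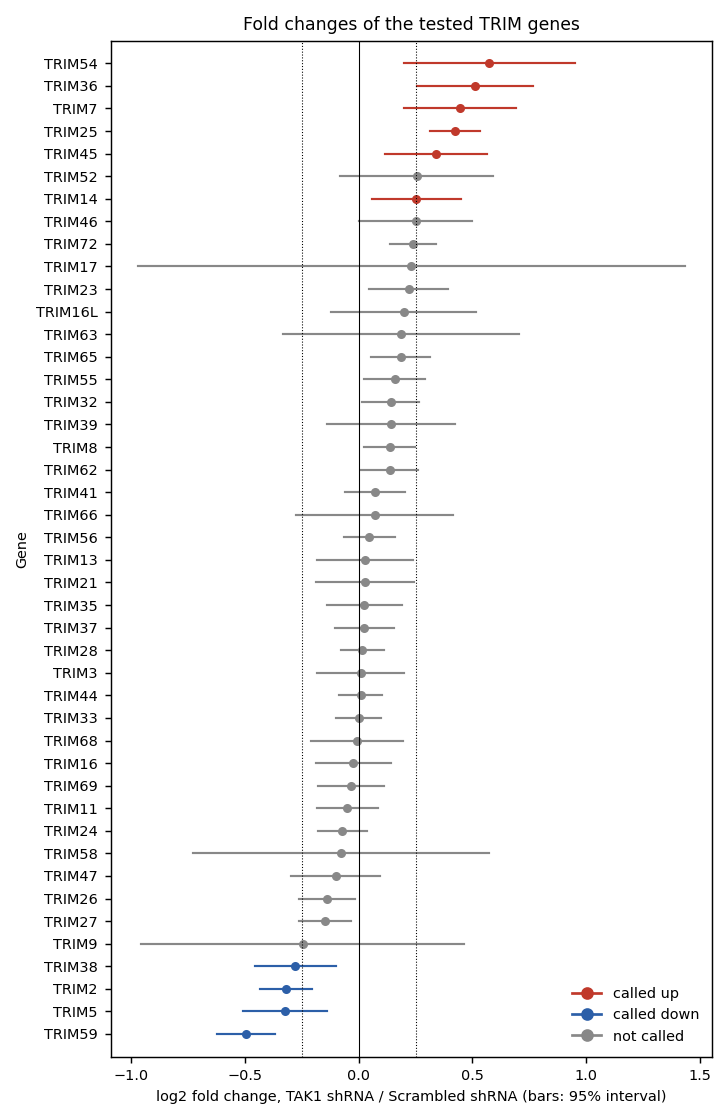
Log2 fold change of the 44 tested TRIM genes (horizontal axis, TAK1 shRNA over Scrambled shRNA, points) with 95% intervals (bars), red for genes called up, blue for genes called down and grey for genes not called. Dotted lines mark the fold threshold of 0.25 in either direction, and the 6 upregulated genes reach 0.58 while the 4 downregulated genes reach -0.50.

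Without the fold threshold, 14 TRIM genes had an adjusted p under 0.05 (31.8% of the tested members, against 33.3% of all tested genes), 9 of them higher and 5 lower in the TAK1 shRNA cultures. The 4 that did not reach the fold threshold were TRIM72, TRIM23, TRIM65 and TRIM27. In 17 members the 3 values of one group did not overlap the 3 values of the other (38.6%, against 43.9% of all tested genes), and these included all 10 called members. Among the 34 members not called, the 95% interval of the fold change lay inside 0.25 in both directions for 16 and reached beyond it for 18, so a change of that size is not excluded in the latter.

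Promoter sequences are shown whole for the 3 called members whose window overlaps no annotated UTR, namely TRIM54, TRIM14 and TRIM38. The 250 bases before the transcription start (RefSeq, GRCh38.p14) were found for 34 of the 44 tested members, with TRIM45 the only called member among those without an entry. Both strands were searched for an AP-1 site (TGANTCA), E-boxes (CANNTG), the E-box favoured by myogenic factors (CAGCTG, which is itself a CANNTG match), the TEAD site (CATTCC), the TATA box (TATAAA), the interferon-stimulated response element (GAAA, any 2 bases, GAAA) and a kappaB consensus. The windows are printed on the gene's strand, with every match except plain E-boxes in capitals.
TRIM54, chr2:27282179-27282428 (+): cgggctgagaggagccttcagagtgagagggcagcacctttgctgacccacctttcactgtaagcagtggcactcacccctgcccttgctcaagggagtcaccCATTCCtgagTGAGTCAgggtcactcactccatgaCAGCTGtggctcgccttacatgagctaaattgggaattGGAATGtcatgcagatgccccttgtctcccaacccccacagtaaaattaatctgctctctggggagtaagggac
TRIM14, chr9:98119223-98119472 (-): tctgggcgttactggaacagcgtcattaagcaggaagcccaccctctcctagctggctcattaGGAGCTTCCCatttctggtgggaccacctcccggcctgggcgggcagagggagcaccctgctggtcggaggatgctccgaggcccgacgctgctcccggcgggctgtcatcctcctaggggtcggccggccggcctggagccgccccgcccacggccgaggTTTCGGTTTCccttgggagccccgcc
TRIM38, chr6:25962552-25962801 (+): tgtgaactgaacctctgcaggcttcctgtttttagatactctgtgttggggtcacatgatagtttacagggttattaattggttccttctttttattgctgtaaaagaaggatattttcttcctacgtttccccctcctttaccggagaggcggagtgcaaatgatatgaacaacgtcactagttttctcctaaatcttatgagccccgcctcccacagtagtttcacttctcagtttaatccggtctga
The TRIM54 window held 1 AP-1 site, 1 CAGCTG and 2 TEAD sites, and the TRIM14 window held 1 kappaB match followed by 1 interferon-stimulated response element. The TRIM38 window held 2 plain E-boxes and no other match. Among the called members not printed whole, the TRIM5 window held 1 AP-1 site, 1 TEAD site and 1 response element, and the TRIM2 window held 2 TEAD sites and 1 TATA box.

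The response element was present in 6 of 34 TRIM windows (17.6%) and in 2.26% of 10820 promoters of tested genes. The 6 genes are compared here over the element, in capitals, with 10 bases on each side on the gene's strand, as TRIM26 holds a pair of overlapping matches.
TRIM14, chr9:98119229-98119258 (-): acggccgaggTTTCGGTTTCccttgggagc
TRIM5, chr11:5685082-5685111 (-): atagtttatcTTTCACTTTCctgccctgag
TRIM16, chr17:15683012-15683041 (-): acagaggtaaGAAATAGAAAtaaagggtcc
TRIM26 first match, chr6:30213581-30213610 (-): tcccgcctgaTTTCAGTTTCcatttcgctg
TRIM26 second match, chr6:30213575-30213604 (-): ctgatttcagTTTCCATTTCgctgcccctg
TRIM44, chr11:35662730-35662759 (+): tcctgacgggGAAAGGGAAAgtggaaccgg
TRIM69, chr15:44736456-44736485 (+): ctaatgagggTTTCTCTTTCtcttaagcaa
Of these 6 genes TRIM14 was called up and TRIM5 down, where 23.1% of all tested genes were called either way. The other 4 were not called. The TRIM14 call was lost in 8 of 14 alternative analyses, and the free bases of the element differed between the genes. Whether the element bears on the direction of change was not tested. An E-box was found in 61.8% of TRIM windows and 52.4% of all promoters, CAGCTG in 23.5% and 12.9%, the TEAD site in 20.6% and 9.22%, the AP-1 site in 8.82% and 3.54%, the TATA box in 8.82% and 4.98%, and the kappaB consensus in 2.94% and 12.1%. These shares describe letters in short windows, and binding was not measured.

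TRIM28, the corepressor that KRAB zinc finger proteins recruit to silence transposable elements, was by far the most abundant member when levels were set per kilobase of the canonical transcript. It measured 286 ± 18.2 CPM per kb in the controls and 289 ± 11.2 in the TAK1 shRNA cultures (SD, n = 3). TRIM8, a ligase reported to modify TAK1 itself, followed at 59.5 ± 4.44 and 65.4 ± 3.22 CPM per kb, and TRIM27, an inhibitor of innate immune kinases, at 32.7 ± 2.12 and 29.5 ± 1.33. By the mean over all 6 cultures, next came the muscle proteins TRIM55 (17.4 ± 0.711 and 19.4 ± 1.42 CPM per kb) and TRIM72 (15.9 ± 0.397 and 18.8 ± 0.913), whose values overlapped between the genes in the TAK1 shRNA cultures. TRIM26 measured 17.7 ± 1.08 and 16 ± 0.461 CPM per kb, above both in the control means and below both in the TAK1 shRNA means. TRIM28 alone took 34.6% to 37.1% of the family's summed CPM in a culture. The summed CPM of all 72 members was 2683 ± 78.8 in the controls and 2747 ± 60.2 in the TAK1 shRNA cultures, and the groups overlapped.

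**Figure D2:**
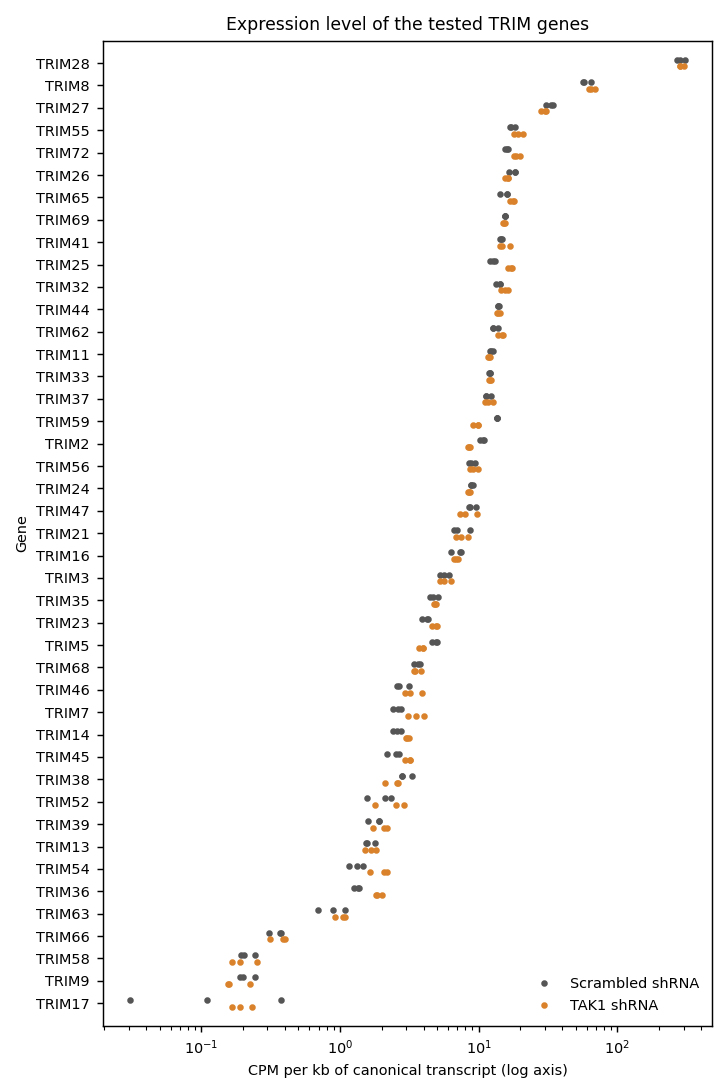
Level of 43 tested TRIM genes (vertical axis, sorted by mean) in CPM per kilobase of canonical transcript (horizontal, log axis), with 1 point for each culture, grey for Scrambled shRNA and orange for TAK1 shRNA. TRIM28 stands alone at the top near 288 CPM per kb, and TRIM17, TRIM9, TRIM58 and TRIM66 lie lowest.

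At the other end, 28 members failed the filter. Of these, 21 had 0 counts in all 6 cultures, which at 3 counts allows 0.0849 to 0.106 CPM in a culture, and the other 7 (TRIM71, TRIM73, TRIM22, TRIM6, TRIM67, TRIM29 and TRIM74) had at most 12 counts in a culture. Chromosome 11 carried the largest share of them. It holds 19 of the 71 members placed in GENCODE 44, of which 10 had 0 counts, among them TRIM48, TRIM49, TRIM64 and TRIM77, and 6 were tested (TRIM44, TRIM3, TRIM5, TRIM21, TRIM68 and TRIM66). Several of these silent genes are near-identical copies, among which reads with more than one match cannot be assigned, and how the authors counted such reads is not given in the sources used here. On chromosome 6, TRIM10, TRIM15, TRIM31 and TRIM40 had 0 counts and TRIM26, TRIM27, TRIM38 and TRIM39 were tested.

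The muscle TRIM genes were all tested and all 5 had positive fold changes, with a median of 0.18. Of the 44 tested family members, 29 had positive fold changes. Among the muscle genes 1 of 5 was called up (20%, beside 11.8% of all tested genes). TRIM54 (MuRF3), which binds microtubules and the sarcomere in striated muscle, was that gene. Its values were 2.85, 2.25 and 2.56 CPM in control replicates 1, 2 and 3 and 3.18, 4.19 and 4.00 CPM in the TAK1 shRNA replicates. Each TAK1 shRNA culture lay above each control, replicate 1 by the smallest margin. The log2 fold change was 0.58 (SE 0.183, adjusted p = 0.0170). TRIM54 spans 27282429 to 27307439 on the plus strand of chromosome 2 (GRCh38) and shares exon sequence with UCN on the other strand. Its counts were 71 to 148 per culture, and the call was lost without Scrambled replicate 2 (0.49, adjusted p = 0.0874), without TAK1 replicate 2 (0.50, 0.0676) or without TAK1 replicate 3 (0.53, 0.0555), and the adjusted p ran from 0.0094 to 0.0874 over all 14 alternative analyses.

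TRIM72 (MG53), which nucleates membrane repair in muscle fibres, gave 136, 130 and 135 CPM in the controls and 166, 156 and 151 CPM after TAK1 knockdown. The groups did not overlap, and the log2 fold change of 0.24 (SE 0.0492, adjusted p = 0.000431) fell just short of the fold threshold. It passed the threshold with upper-quartile normalization (0.26), with library size alone (0.29), without Scrambled replicate 1 (0.25) and without TAK1 replicate 3 (0.26). The other 2 muscle RING finger genes were not called. TRIM55 (MuRF2), which associates with titin during sarcomere assembly, was at 44.8, 46.1 and 48.6 CPM in the controls and at 48.5, 51.1 and 56.0 CPM in the TAK1 shRNA cultures, which overlapped (log2 fold change 0.16, SE 0.0646, adjusted p = 0.0625). TRIM63 (MuRF1), the ligase known for muscle atrophy, was scarce. It measured 1.93, 1.59 and 1.23 CPM and then 1.85, 1.64 and 1.91 CPM, the groups overlapped, and the 95% interval of its log2 fold change ran from -0.33 to 0.70. TRIM32, mutated in a limb-girdle muscular dystrophy, had a log2 fold change of 0.14 (adjusted p = 0.0785) with groups that did not overlap.

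Beside them, 5 of 12 tested muscle lineage markers were called up and 1 down (50%, beside 23.1% of all tested genes). Their median log2 fold change was 0.23. The largest increase was in TTN (1.06, adjusted p = 1.64e-11), which encodes titin, followed by MYH8 (0.50, 0.0281), a developmental myosin heavy chain, and ACTC1 (0.40, 5.38e-08), the cardiac actin expressed in developing muscle. CHRNA1, an acetylcholine receptor subunit, fell by 0.40 on the log2 scale (adjusted p = 1.91e-08). In bulk RNA, more cells of a kind and more RNA per cell cannot be told apart. Of 13 tested muscle ubiquitin ligases outside the TRIM family, 2 were called (15.4%, beside 23.1% of all tested genes), both of them down. These were FBXO30 (log2 fold change -0.35, adjusted p = 0.000164), a ligase linked to muscle loss, and NEDD4 (-0.28, 0.00547). FBXO32 (atrogin-1), the atrophy ligase usually paired with TRIM63, gave 0.04 with an interval from -0.27 to 0.36.

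The antiviral and nucleic acid sensing TRIM genes were split in direction. Of 10 listed, 8 were tested, 2 were called up and 2 down (50% called, beside 23.1% of all tested genes). The median log2 fold change was 0.037. This list, like the others here, was written with results of these data known. TRIM25, which attaches ubiquitin chains and ISG15 in the pathway of the RNA sensor RIG-I, was the clearest increase in the family. It rose from 75.4, 69.7 and 72.4 CPM in the controls to 99.5, 93.5 and 98.5 CPM in the TAK1 shRNA cultures, with the lowest TAK1 shRNA value well above the highest control. The log2 fold change was 0.42 (SE 0.0530, 95% interval 0.31 to 0.53, adjusted p = 7.66e-07). TRIM25 spans 56836387 to 56914080 on the minus strand of chromosome 17 and shares exon sequence with C17orf67 and MIR3614 on the same strand and with DGKE on the other.

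TRIM14 lacks a RING and serves as an adaptor on mitochondria for the RIG-I signaling protein MAVS. Its values were 12.3, 11.6 and 10.9 CPM in the controls and 13.7, 14.2 and 13.4 CPM after TAK1 knockdown, without overlap. The log2 fold change of 0.25 (SE 0.0946, adjusted p = 0.0408) was at the threshold, and the call was lost in 8 of 14 alternative analyses, for example with DESeq2 (0.25, adjusted p = 0.0602) and without Scrambled replicate 3 (0.21, 0.175), with adjusted p from 0.0159 to 0.175 over the 14. TRIM14 spans 98069275 to 98119222 on the minus strand of chromosome 9 and overlaps exons of NANS on the other strand.

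TRIM5, which recognises retroviral capsids and whose ubiquitin chains can activate TAK1, fell. It was at 16.4, 16.9 and 15.6 CPM in the controls and at 13.3, 13.4 and 12.4 CPM in the TAK1 shRNA cultures. All 3 controls exceeded all 3 TAK1 shRNA values, and the log2 fold change was -0.32 (SE 0.0892, adjusted p = 0.00628). TRIM5 spans 5663195 to 5938619 on the minus strand of chromosome 11 and shares exon sequence with another annotated gene on that strand. TRIM38, which removes TAB2 and TAB3 and so restrains TAK1 signaling, measured 26.2, 31.0 and 26.6 CPM and then 20.005, 24.5 and 24.4 CPM. Scrambled replicate 2 was the highest and TAK1 replicate 1 the lowest, and the groups did not overlap (log2 fold change -0.28, SE 0.0867, adjusted p = 0.0148). The TRIM38 call was lost without either of these cultures (-0.20, adjusted p = 0.145, and -0.19, 0.0883) and with library size alone (-0.23, 0.0507), in a range from 0.00217 to 0.145 over all alternatives. TRIM38 spans 25962802 to 25991231 on the plus strand of chromosome 6, with an overlapping gene on the other strand.

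The members not called in this group included TRIM65, a ligase for the RNA sensor MDA5, at a log2 fold change of 0.18 (adjusted p = 0.0239, under the fold threshold). TRIM26 gave -0.14 (adjusted p = 0.0789). TRIM56 and TRIM21, the cytosolic antibody receptor, lay at 0.05 and 0.03 with overlapping groups. TRIM22 had 0 to 6 counts per culture and TRIM34 had 0.

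Among 40 tested interferon-stimulated genes, 16 were called down and 2 up (45% called, beside 23.1% of all tested genes), with a median log2 fold change of -0.15, while TRIM25 rose and TRIM5 fell. The largest decreases were in OASL (-1.70, SE 0.149, adjusted p = 2.17e-09), OAS2 (-1.42, SE 0.226, adjusted p = 2.06e-05), IFIT2 (-1.41, SE 0.0701, adjusted p = 1.03e-13) and IFIT3 (-1.22, SE 0.0774, adjusted p = 6.88e-12). These encode an oligoadenylate synthetase-like protein, an oligoadenylate synthetase and RNA-binding antiviral proteins. Of the 11 tested RIG-I signaling genes, 2 were called up and 4 down (54.5% called, beside 23.1% of all tested genes). IFIH1 (MDA5) had a log2 fold change of -0.62 (adjusted p = 0.00862), the kinase TBK1 -0.46 (1.98e-05), the RNA-binding cofactor ZC3HAV1 -0.43 (2.02e-07) and MAVS 0.36 (2.17e-06). DDX58, which encodes RIG-I itself, was also called down (-0.30, adjusted p = 0.0122). TRAF3 was the other gene of this list called up (0.28, adjusted p = 0.000299), and 5 genes of the list were not called. TRIM25, MAVS and TRAF3 were thus higher, while DDX58, IFIH1, ZC3HAV1 and TBK1 were lower.

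**Figure D3:**
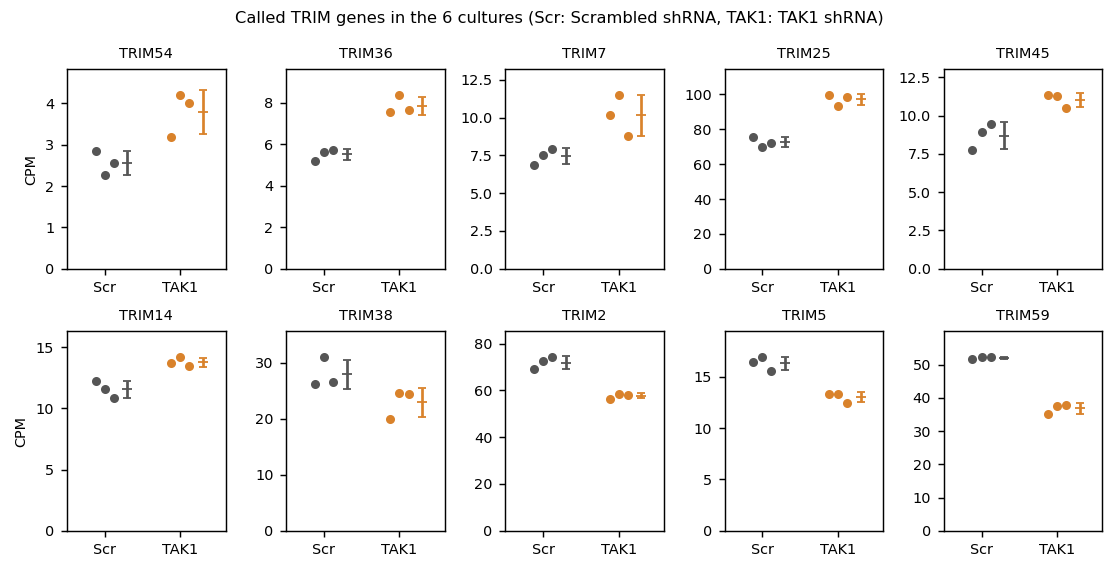
CPM (vertical axis, from 0) of the 10 called TRIM genes in each culture, grey for Scrambled shRNA (Scr) and orange for TAK1 shRNA (TAK1), with the group mean and SD (n = 3) beside the points. The groups do not overlap in any panel, and the gap is wide for TRIM25 (75.4 against 93.5 CPM at the nearest points) and TRIM59 (51.5 against 37.8 CPM).

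Of the 9 TRIM genes linked to TAK1, TAB proteins or NF-kB, all were tested, 3 were called down (TRIM59, TRIM5 and TRIM38) and 1 up (TRIM45), with a median log2 fold change of -0.15. The called share was 44.4% beside 23.1% of all tested genes, in a short list written with results of these data known. TRIM59, a membrane-anchored member reported to inhibit NF-kB signaling and studied for its part in tumour growth, showed the largest decrease in the family. It was at 51.5, 52.2 and 52.2 CPM in the controls and at 35.0, 37.5 and 37.8 CPM in the TAK1 shRNA cultures, so the controls were nearly identical and all TAK1 shRNA values lay below them. The log2 fold change was -0.50 (SE 0.0617, 95% interval -0.62 to -0.37, adjusted p = 6.32e-07). TRIM59 spans 160432445 to 160485773 on the minus strand of chromosome 3 and shares exon sequence with a read-through gene on its strand and with SMC4, a condensin subunit, on the other. SMC4 fell by 0.31 on the log2 scale (adjusted p = 5.14e-05). IFT80, a neighbour chosen after its values were seen, rose by 0.29 (adjusted p = 0.0310), with groups that overlapped. Whether shared reads enter the TRIM59 value was not tested.

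TRIM45, a filamin-repeat member reported to restrain MAPK and NF-kB activity, rose. Its values were 7.74, 8.92 and 9.44 CPM in the controls and 11.3, 11.3 and 10.5 CPM after TAK1 knockdown, with no overlap. The log2 fold change was 0.34 (SE 0.108, adjusted p = 0.0171), and the call was lost without Scrambled replicate 1 (0.26, adjusted p = 0.101, the highest of a range that starts at 0.0082). TRIM45 spans 117111060 to 117122587 on the minus strand of chromosome 1, and no other annotated exon overlaps it. The members not called were TRIM23 (log2 fold change 0.22, adjusted p = 0.0458), an ARF-domain ligase for the NF-kB regulator NEMO, TRIM27 (-0.15, 0.0431), TRIM8 (0.14, 0.0535), TRIM13 (0.03, 0.864) and TRIM9 (-0.25, 0.635). TRIM8 was measured at 178, 160 and 155 CPM and then at 191, 174 and 177 CPM, with overlap. TRIM27 was at 98.8, 102 and 90.0 CPM and then at 90.2, 83.0 and 89.3 CPM, also with overlap.

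The chains that activate TAK1 are built by a dimer of the conjugating enzyme UBE2N and its cofactor UBE2V1, and these moved in opposite directions. UBE2N was at 132, 137 and 136 CPM in the controls and fell to 99.8, 106 and 103 CPM (log2 fold change -0.39, SE 0.0485, adjusted p = 5.66e-07). UBE2V1 was at 2.07, 1.87 and 1.82 CPM and rose to 3.11, 3.00 and 2.97 CPM (0.66, SE 0.198, adjusted p = 0.0120), and neither gene's groups overlapped. UBE2V1 rests on 56 to 106 counts per culture, and reads shared with the read-through gene and the processed copies of UBE2V1 cannot be told apart here. UBE2V2, a related gene of the same list and more abundant than UBE2V1, was at 46.2, 49.0 and 48.3 CPM in the controls. It was at 39.2, 46.3 and 42.4 CPM in the TAK1 shRNA cultures, with overlap (log2 fold change -0.165, adjusted p = 0.0597). Of the 14 conjugating enzymes tested, UBE2N and UBE2V1 were the only ones called (14.3%, beside 23.1% of all tested genes). UBE2D3, the partner of many RING ligases, had a log2 fold change of -0.21 (adjusted p = 0.00039) and UBE2K -0.21 (0.0046), both under the fold threshold.

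Chromatin-associated TRIM genes gave 0 calls among the 4 tested by edgeR's quasi-likelihood test, where 23.1% of all tested genes were called. In that test 0 had an unadjusted p under 0.05, and DESeq2 and voom gave 0 calls. TRIM28 was at 1028, 957 and 906 CPM in the controls and at 1017, 955 and 949 CPM in the TAK1 shRNA cultures. The groups overlapped almost entirely, and the 95% interval of the log2 fold change ran from -0.08 to 0.11. TRIM33, a ligase that acts on SMAD4 in TGF-beta signaling, had an interval from -0.10 to 0.10, and TRIM24, a reader of histone marks, from -0.18 to 0.04. The interval of TRIM66, a low-abundance relative, was wider, from -0.27 to 0.41.

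A list of TRIM28 partners and wider silencing factors, not all of them specific to TRIM28, had 18 tested genes. Of these, 5 were called down and 1 up (33.3%, beside 23.1% of all tested genes). Their median log2 fold change was -0.15. MORC3, a chromatin-compacting ATPase, had a log2 fold change of -0.64 (SE 0.0761, adjusted p = 3.77e-07). UHRF1, which maintains DNA methylation, gave -0.46 (SE 0.0400, adjusted p = 1.99e-09), and PPHLN1, a subunit of the HUSH silencing complex, gave -0.40 (SE 0.0637, adjusted p = 1.97e-05). ATF7IP, the cofactor of the histone methyltransferase SETDB1, rose by 0.39 (SE 0.0511, adjusted p = 1.41e-06).

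**Figure D4:**
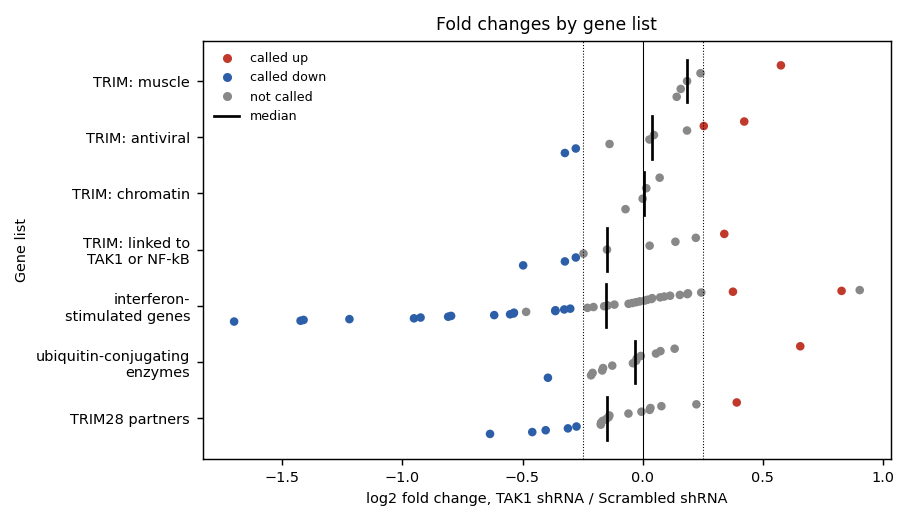
Log2 fold change (horizontal axis, TAK1 shRNA over Scrambled shRNA) of each tested gene in 4 lists of TRIM genes and 3 lists of related genes. Red marks genes called up, blue genes called down and grey genes not called, with a black bar at the list's median. A gene may stand in more than one list, and dotted lines mark 0.25 in either direction. The 5 muscle TRIM genes lie to the right of 0, with TRIM54 the furthest at 0.58, and the interferon-stimulated genes extend to -1.70.

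The remaining called members belong to other classes. TRIM36, a microtubule-associated member of the class with a COS domain, was at 5.20, 5.62 and 5.71 CPM in the controls and at 7.56, 8.35 and 7.66 CPM after TAK1 knockdown. The groups were well apart, with a log2 fold change of 0.51 (SE 0.123, adjusted p = 0.00216). It spans 115124762 to 115180546 on the minus strand of chromosome 5, free of overlap with other annotated exons. TRIM46, which organises microtubules in axons and belongs to the same class, had a log2 fold change of 0.25 and was not called (adjusted p = 0.116, overlapping groups), and TRIM9 was scarce, with 0.708 to 1.11 CPM.

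TRIM7, first described as a partner of glycogenin, rose from 6.89, 7.49 and 7.95 CPM to 10.2, 11.5 and 8.78 CPM. TAK1 replicate 3 was the lowest of its group and still above the highest control (log2 fold change 0.45, SE 0.119, adjusted p = 0.00507). TRIM7 spans 181193924 to 181205293 on the minus strand of chromosome 5 and overlaps exons of its antisense genes TRIM7-AS1 and TRIM7-AS2, which cannot be separated from it if strand was not used in counting. TRIM41 and TRIM52, also near the end of chromosome 5, were not called, with log2 fold changes of 0.07 and 0.26, and TRIM52 was called without TAK1 replicate 3 (0.42, adjusted p = 0.0479, the lowest of a range that ends at 0.729).

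TRIM2, an NHL-repeat ligase for neurofilament light chain, fell from 69.0, 72.7 and 74.2 CPM to 56.5, 58.5 and 57.9 CPM. Its groups did not overlap, and the log2 fold change was -0.32 (SE 0.0554, adjusted p = 6.62e-05). TRIM2 spans 153152163 to 153339319 on the plus strand of chromosome 4 and shares exon sequence with another annotated gene on its strand. The other NHL-repeat genes tested, TRIM3 and TRIM32, had log2 fold changes of 0.01 (adjusted p = 0.958) and 0.14 (0.0785), and TRIM71, the stem cell member, had 2 to 12 counts per culture and was not tested.

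By C-terminal class, the large PRY-SPRY class had 19 tested genes, with a median log2 fold change of 0.025. Of these, 2 were called up (TRIM7 and TRIM25) and 2 down (TRIM5 and TRIM38), or 21.1% beside 23.1% of all tested genes. Of the 5 tested members without a RING, TRIM14 was the only one called (20%). TRIM44, TRIM16, TRIM16L and TRIM66 lay between -0.02 and 0.20. TRIM16 and TRIM16L are close copies, so their split of reads is uncertain. Relatives of the family that carry other names were measured as well. All 3 that passed the filter were called up, where 11.8% of all tested genes were. Their list was written with results of these data known, so that contrast is no test. CMYA5 (0.55, SE 0.149, adjusted p = 0.00583) is a muscle protein of the costamere. PML (0.34, SE 0.0648, adjusted p = 0.000185) organises nuclear bodies. MID1 (0.27, SE 0.0663, adjusted p = 0.00264) is a microtubule-associated ligase. The values of CMYA5 were 4.08, 5.21 and 6.94 CPM in the controls and 7.83, 7.70 and 8.24 CPM after TAK1 knockdown, and its control cultures were the more spread.

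The precision of these values depended on the level of the gene. SEs of the log2 fold change ran from 0.045 to 0.583 across the tested members, with a median of 0.0823. TRIM17, which had 22, 2 and 7 counts in the controls and 10, 17 and 13 in the TAK1 shRNA cultures, was the least precise, with an interval from -0.97 to 1.44. Exons of 23 of the 43 tested members placed in GENCODE 44 were free of overlap with another annotated gene, 8 overlapped a gene on the same strand and 12 overlapped a gene on the opposite strand alone. Of the 10 called members, TRIM36 and TRIM45 were free of any overlap.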

How the data were processed

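Poly(A)-enriched RNA was sequenced by the authors as paired-end reads on an Illumina NovaSeq instrument, base-called with CASAVA, filtered for adaptors and low quality, and aligned to GRCh38 with STAR. They deposited unnormalised counts of reads per gene. The counter, the annotation release, strand use and the handling of reads with several matches are not given in the sources used here.

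Samples were grouped by their labels (n = 3 per group). Counts were compared with edgeR 4.0.16 in R 4.3.3, using filterByExpr at its defaults, TMM normalization and quasi-likelihood testing, and p was adjusted by Benjamini-Hochberg over 15935 genes. All adjusted p-values come from this fit, except where another tool is named. The thresholds of 0.05 and 0.25 are those of the study, whose methods name no test. Alternatives were DESeq2 1.42.0, voom in limma 3.58.1, 3 further normalizations, looser and stricter filters, changed fold thresholds, a block for the replicate number, and omission of each culture in turn. SEs were back-calculated from the log2 fold change and the F statistic of the quasi-likelihood test, and the 95% intervals were built from these SEs. The common biological coefficient of variation was 5.67%. Replicates differed by more than sampling noise (chi-square per degree of freedom 2.88 to 8.6).

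The members and gene lists were chosen with earlier results of these data known. Named with values were all called members, the 5 with the highest CPM per kilobase, the 3 muscle RING finger genes, and up to 4 genes per list, called ones first by size of change. Other members and markers were named after their values were seen, to account for each list. Transcript lengths, positions and overlaps came from GENCODE 44. The symbol TRIM16L matched more than 1 gene there and has no position or length here. Promoters came from RefSeq, at the start nearest the canonical transcript's.

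In simulated data for this comparison over 15716 genes, edgeR recovered 75 of 77 2-fold changes at a mean of at least 50 counts and 7 of 20 under 50. Of changes of 0.5 on the log2 scale it recovered 69 of 81 and 0 of 19, with 10 false calls in all.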

Additional observations from a re-analysis of the deposited data

How the results depend on the processing

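TRIM25, TRIM59, TRIM2, TRIM5, TRIM7 and TRIM36 kept their calls in all 14 alternatives that refit the data. Across the other tools, normalizations and filters, 5 to 8 TRIM genes were called up and 3 or 4 down, and leaving out 1 culture gave 4 to 6 up and 3 to 4 down. Raising the fold threshold to 0.5 left 2 up and 0 down in edgeR's test, by construction, since TRIM59 lay at -0.4975. With DESeq2 TRIM59 lay at -0.503 (adjusted p = 7.39e-13), so the 0 depends on the tool. The share of all tested genes that pass 0.5 was not computed, so these counts have no background beside them. No fold threshold gave 9 up and 5 down (31.8% of the tested members, against 33.3% of all tested genes). The median log2 fold change of the tested members was 0.086 with library size alone and 0.026 to 0.080 when 1 culture was left out, the highest without Scrambled replicate 1, and the cause was not tested. MAP3K7 stayed between -1.25 and -1.36.

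With the replicate number as a block, 6 members were called up and 4 down, with a median of 0.038. The deviations of same-numbered cultures correlated at 0.037, 0.0364 and 0.0165, so the numbers were not taken as pairs, although 5 of 6 cultures correlated best with their own number.

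Changes of sign were limited to members not called in either analysis. With upper-quartile normalization the log2 fold change was 0.017 for TRIM33 and 0.0083 for TRIM68. With library size alone it was 0.048 for TRIM33, 0.015 for TRIM69, 0.025 for TRIM16 and 0.040 for TRIM68. With at least 10 counts in every sample it was 0.0039 for TRIM33. Leaving out 1 culture gave log2 fold changes of TRIM33 -0.0261 to 0.0137, TRIM16 -0.0953 to 0.0206, TRIM21 -0.0545 to 0.151, TRIM13 -0.0365 to 0.099, TRIM37 -0.0365 to 0.0678, TRIM66 -0.0149 to 0.173, TRIM58 -0.273 to 0.0428, TRIM17 -0.279 to 1.47, TRIM28 -0.0285 to 0.0635, TRIM35 -0.0185 to 0.0769, TRIM3 -0.0652 to 0.0695, TRIM68 -0.0657 to 0.0226, TRIM44 -0.018 to 0.0234, TRIM56 -0.0117 to 0.0847. Depth limits the genes with few counts, such as TRIM54, TRIM63 and TRIM17, for which moderate changes could be missed.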
